A study of Mus musculus with 4 samples.

Results

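The gene segments that encode the T cell receptor were followed in RNA sequencing counts of whole mouse pancreas. The 266 members were every gene symbol in the deposited tables that named a variable (V), joining (J) or constant segment of the alpha, beta, gamma or delta chain, out of 55291 symbols in all. They comprised 191 alpha, 51 beta, 15 gamma and 9 delta symbols, or 178 V, 80 J and 8 constant genes. The rule reads gene names, not values.

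The tissue came from 2 groups of 2 libraries each. The first group was labelled Pdx1-Cre+, poh1f/f (both poh1 copies floxed, called knockout), and the second Pdx1-Cre+, poh1f/+ (1 copy floxed, called control), so every library carried the Cre transgene and no library without Cre was compared. Pdx1-Cre is driven by a promoter active in the embryonic epithelium of the pancreas, from which its exocrine and endocrine cells descend and T cells do not. The labels gave no age, sex or batch and did not say whether the libraries came from separate animals, so the p-values measure the spread between these libraries, which may be technical. Psmd14, the current symbol of poh1 and a deubiquitinase of the proteasome lid, had 1839 and 1906 counts in the libraries labelled knockout, against 1354 and 1265 counts in the control libraries. Its log2 fold change was 0.20 ± 0.11 (SE), with an adjusted p of 0.26 in edgeR's quasi-likelihood test with Benjamini-Hochberg adjustment. The targeted gene was therefore not lower in whole tissue, and the first group is called the libraries labelled knockout throughout.

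Library totals were 27470926 and 27849730 counts in the libraries labelled knockout, against 22875618 and 24635792 counts in the control libraries. One library stood apart. The 7 enterocyte markers summed to 5.57 and 585 CPM (counts scaled to a library total of 1000000) in the libraries labelled knockout, against 19.1 and 23.9 CPM in the control libraries, and of these markers Sis and Alpi had 2508 and 756 counts in knockout replicate 2 and 0 in the other 3 libraries. Results without that library are given where it matters.

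A T cell receptor is a pair of chains, alpha with beta or gamma with delta, each built from a V segment and a J segment joined in DNA (with a D segment in beta and delta) and spliced to a constant segment in RNA. The joining takes place in developing T cells, mostly in the thymus, so transcripts of joined V and J segments mark T cells and their choice of segments records how varied those cells are. The receptor reaches the cell surface with the CD3 chains, and signals through the kinases Lck and Zap70. A normal pancreas holds few T cells.

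Some sequences show what separates one member from another in short reads. The J segments with the highest CPM of the beta and alpha chains are printed on their coding strand, GRCm38, from the GENCODE M21 transcripts, with a phenylalanine-glycine motif of the joint (TTNGGNNNNGG, where N is any base, searched on the coding strand alone) in capitals.
Trbj1-5: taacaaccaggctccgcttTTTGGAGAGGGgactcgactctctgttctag
Trbj1-4: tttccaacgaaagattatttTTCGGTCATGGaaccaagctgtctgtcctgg
Trbj1-3: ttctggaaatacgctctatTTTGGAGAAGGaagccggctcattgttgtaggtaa
Traj6: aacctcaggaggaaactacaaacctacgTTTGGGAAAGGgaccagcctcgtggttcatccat
Traj2: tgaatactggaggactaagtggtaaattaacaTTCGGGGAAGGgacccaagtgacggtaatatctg
Traj3: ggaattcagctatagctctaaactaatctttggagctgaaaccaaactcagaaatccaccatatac

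The first 3 lie at chr6:41535084-41535133, chr6:41534811-41534861 and chr6:41534323-41534376, and Traj6, Traj2 and Traj3 at chr14:54212688-54212749, chr14:54217836-54217901 and chr14:54217292-54217357, all on the plus strand. The motif was found in 59 of the 80 J members, including 44 of 51 alpha J genes, 11 of 13 beta J genes and both delta J genes, and in 2 of 10 J pseudogenes. It was not found in the 4 gamma J genes or in Traj3.

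Both beta constant genes encode nearly the same protein. Over the 518 aligned coding bases 23 differed, an identity of 95.6%. The stretch from base 438 to base 497 held 10 of these differences, shown in capitals, and reads over it separate the genes.
Trbc1: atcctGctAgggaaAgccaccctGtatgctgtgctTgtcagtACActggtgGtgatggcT
Trbc2: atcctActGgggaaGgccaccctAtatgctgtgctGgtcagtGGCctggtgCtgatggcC

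Alpha V segments are harder to separate, because blocks of the mouse alpha locus are repeated and the copies carry the letters d or n in their names. The last 60 bases of 3 copies of the Trav14-3 segment and 3 copies of the Trav13-4 segment are shown, with positions that differ among the 3 copies of each in capitals, since these copies carry a result described further on.
Trav14n-3: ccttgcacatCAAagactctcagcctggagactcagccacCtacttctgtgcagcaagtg
Trav14-3: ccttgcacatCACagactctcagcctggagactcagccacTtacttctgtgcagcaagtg
Trav14d-3-dv8: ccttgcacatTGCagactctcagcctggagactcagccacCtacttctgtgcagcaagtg
Trav13n-4: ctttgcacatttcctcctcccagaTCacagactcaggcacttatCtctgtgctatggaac
Trav13-4-dv7: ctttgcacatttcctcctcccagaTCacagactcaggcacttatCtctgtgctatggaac
Trav13d-4: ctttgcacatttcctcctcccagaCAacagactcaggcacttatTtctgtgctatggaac

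In the 3 Trav14-3 copies 4 of the 60 positions differed, and in the 3 Trav13-4 copies 3 did. Over their shared length Trav14n-3 and Trav14-3 were 97.2% identical. Trav13n-4 and Trav13-4-dv7 were identical over these 60 bases and 93.2% identical over their shared length.

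The summed level of every chain was higher in the libraries labelled knockout. Summed over all members, the T cell receptor had 220 and 267 CPM in the libraries labelled knockout, against 24.2 and 16.8 CPM in the control libraries, an 11.9-fold difference of the means. The groups did not overlap for any chain, as was so in this direction for 31.7% of the 31040 genes with any count. With 2 libraries a group the exact two-sided permutation p cannot go below 0.333, and each of these sums had that value.

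The alpha chain had 70.8 and 85.7 CPM in the libraries labelled knockout, against 6.78 and 4.34 CPM in the control libraries, a 14.1-fold difference. The beta chain had 127 and 160 CPM in the libraries labelled knockout, against 13.5 and 8.56 CPM in the control libraries, a 13.0-fold difference. Alpha and beta together form the receptor of most circulating T cells. Their sums differed by nearly the same factor, but their parts did not. V segments differed 7.57-fold for alpha and 19.6-fold for beta. J segments and constant genes differed by a larger factor for alpha than for beta. The near match of the sums thus does not show that both chains moved in step. The gamma chain had 16.0 and 15.4 CPM in the libraries labelled knockout, against 2.58 and 2.35 CPM in the control libraries, a 6.36-fold difference. The delta chain had 6.26 and 6.54 CPM in the libraries labelled knockout, against 1.31 and 1.50 CPM in the control libraries, a 4.55-fold difference. The RNA of gamma and delta segments was thus also at a higher level, by a smaller factor. Most of it was constant gene counts. In the libraries labelled knockout these were 344 and 340 of 439 and 429 gamma counts, and 117 and 130 of 172 and 182 delta counts. Whether joined gamma delta receptors were at a higher level was not tested. The 4 CD3 chains, which every T cell receptor needs, together had 118 and 136 CPM in the libraries labelled knockout, against 7.69 and 5.89 CPM in the control libraries, an 18.7-fold difference. In bulk tissue, more T cells and more of this RNA per T cell cannot be told apart.

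**Figure D1:**
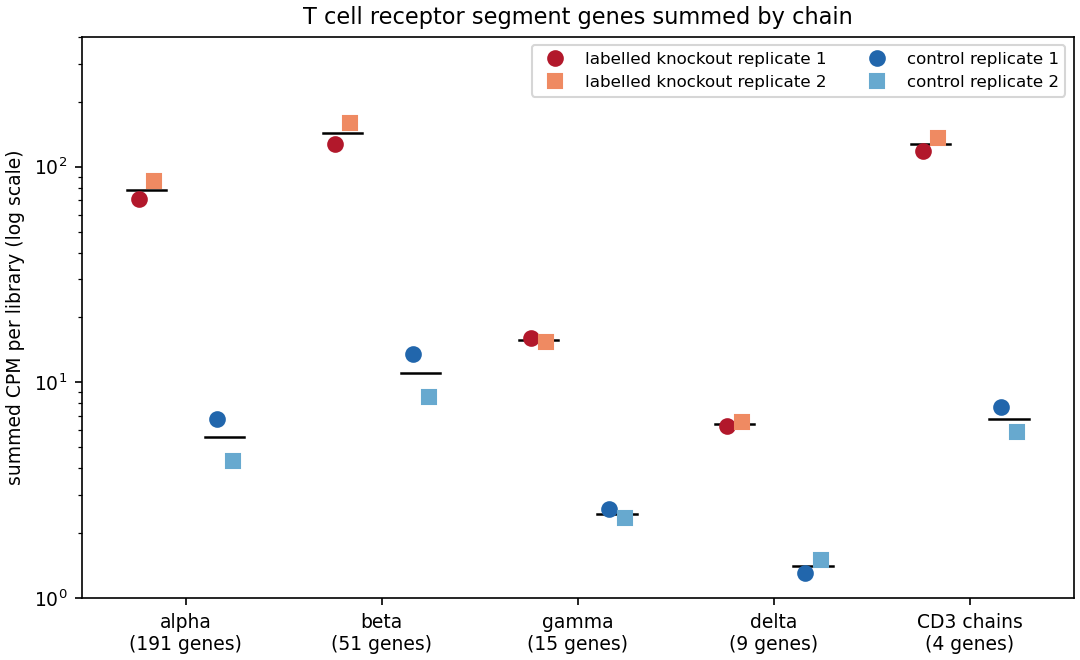
Summed CPM (log scale) of all members of each chain and of the 4 CD3 chains in each library, with black lines at the mean of each group of 2 libraries. The libraries labelled knockout lie above the control libraries in every column, by 14.1-fold for alpha, 13.0-fold for beta, 6.36-fold for gamma and 4.55-fold for delta.

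Of the 266 members, 181 had at least 1 count in some library and 85 had none. The filter on low counts left 53 for the test, of which 45 were higher in the libraries labelled knockout at an adjusted p under 0.05 and 0 were lower. Over all 19134 genes tested, 12.1% were higher and 9.95% lower. At an unadjusted p under 0.05 in edgeR, 50 members were higher and 0 lower, and DESeq2 and limma-voom also called 0 lower. The filter limits how these counts can be read, because 45 of the 53 tested members passed its minimum of 0.384 CPM in both libraries labelled knockout but not in both control libraries, so being high in the libraries labelled knockout is what let them into the test. The 7 that passed it in both control libraries were Trac, Trbc1, Trbc2, Trdc, Trgc1, Trgc2 and Trav14n-3, and 6 of these were called higher. Without any filter, 136 of the 181 members with a count had both libraries labelled knockout above both control libraries and 0 had both below, against 31.7% and 20.9% of the 31040 genes with any count. In 106 of the 181 both control libraries were at 0, so the libraries labelled knockout could not lie below them there. For most members the 0 was thus fixed in advance, and it cannot be set against the 20.9%. The median log2 fold change was 3.74 over the tested members, or 3.26 with the 10 that were at 0 in both control libraries set at their lower bounds, and -0.002 over all genes tested. By chain, 9 of 16 tested alpha members, 30 of 31 beta, 4 of 4 gamma and 2 of 2 delta were higher. The calls depended on the control libraries. Fewer members were called higher with either control library left out, and fewest with control replicate 1 left out. The same was so over all genes tested, so this dependence is not particular to the members. With control replicate 1 left out, the median log2 fold change of the tested members was 4.33, and with control replicate 2 left out it was 3.86. Leaving out knockout replicate 1 gave 3.775, and leaving out knockout replicate 2 gave 3.43.

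The constant genes, which carry the reads of every joined receptor of their chain, gave the deepest measurement. All 7 that were tested were higher, beside 12.1% of all genes tested. Trac, the single alpha constant gene (ENSMUSG00000076928.5, chr14:54220521-54224206), had 1319 and 1549 counts, or 48.0 and 55.6 CPM, in the libraries labelled knockout, against 70 and 54 counts, or 3.06 and 2.19 CPM, in the control libraries. Its log2 fold change was 4.20 ± 0.22 (SE) with an adjusted p of 0.00175 in edgeR's quasi-likelihood test. No other constant gene had a fitted change of that size.

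Trbc1 (ENSMUSG00000076490.6, chr6:41538218-41539881) had 832 and 1108 counts in the libraries labelled knockout, against 92 and 42 counts in the control libraries, a log2 fold change of 3.51 ± 0.43 (edgeR adjusted p = 0.0088). Trbc2 (ENSMUSG00000076498.2, chr6:41546730-41548352) had 1145 and 1402 counts in the libraries labelled knockout, against 122 and 92 counts in the control libraries, a log2 fold change of 3.24 ± 0.23 (edgeR adjusted p = 0.00273). The groups did not overlap for either gene, as was so in this direction for 31.7% of the 31040 genes with any count. Trbc1 took 42.1% (95% interval 39.0 to 45.2) and 44.1% (41.4 to 46.9) of the counts of both in the libraries labelled knockout, against 43.0% (33.5 to 52.9) and 31.3% (20.6 to 43.8) in the control libraries. These exact Clopper-Pearson intervals cover counting error only and were computed on halved counts, because small counts in the files were mostly even (68.1 to 69.6% of genes with 1 to 20 counts), so that a pair of counts may be 1 fragment. One control library lay inside the range of the libraries labelled knockout, so the balance between the beta constant genes showed no difference beyond the spread.

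Trdc, the delta constant gene (ENSMUSG00000104876.1, chr14:54142851-54148868), had 117 and 130 counts in the libraries labelled knockout, against 20 and 19 counts in the control libraries. Its log2 fold change was 2.34 ± 0.30 (edgeR adjusted p = 0.01). Without control replicate 1 the adjusted p was 0.059 at a log2 fold change of 2.44. The strand setting of the counting was not given in the sources used here, so reads of overlapping genes cannot be told apart, and Gm43434 and Gm30275, which overlap delta members, held at most 7 counts in any library.

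Of the gamma constant genes, Trgc1 (chr13:19214103-19217024) had 153 and 155 counts in the libraries labelled knockout, against 26 and 20 counts in the control libraries, a log2 fold change of 2.41 ± 0.32 (edgeR adjusted p = 0.0105). Trgc2 (chr13:19304649-19307551) had 112 and 112 counts in the libraries labelled knockout, against 12 and 22 counts in the control libraries, a log2 fold change of 2.41 ± 0.38 (edgeR adjusted p = 0.0152). Trgc4 (chr13:19344558-19352756) had 78 and 71 counts in the libraries labelled knockout, against 14 and 3 counts in the control libraries, a log2 fold change of 2.78 ± 0.69 (edgeR adjusted p = 0.0452). All 3 rose, and their groups did not overlap, as was so in this direction for 31.7% of the 31040 genes with any count. Trgc4 had passed the filter in both libraries labelled knockout but not in both control libraries. The adjusted p of Trgc2 was 0.0688 without control replicate 1, and that of Trgc4 was 0.0662 without control replicate 2. Trgc3 had 1 and 2 counts in the libraries labelled knockout and 0 in both control libraries, too few to test. Trgc1 was 94.0% identical to Trgc2, 96.9% to Trgc3 and 63.1% to Trgc4, so reads could be divided among the first 3.

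Levels of different constant genes were compared per length. In the libraries labelled knockout the mean level was 66.5 CPM per kilobase of exon for Trbc2, 55.4 for Trac and 46.8 for Trbc1, but 6.03 for Trgc1, 4.43 for Trgc2, 2.74 for Trgc4 and 1.15 for Trdc. In the control libraries the same levels were 6.55 for Trbc2, 2.81 for Trac, 3.82 for Trbc1, 1.05 for Trgc1, 0.775 for Trgc2, 0.372 for Trgc4 and 0.213 for Trdc. The alpha and beta constant genes stood above the gamma and delta ones in both groups.

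Within a library the gamma delta chains took a smaller share of the receptor counts in the libraries labelled knockout, less clearly so for V segments alone. Trdc took 8.15% (95% interval 6.31 to 10.5) and 7.74% (6.02 to 9.76) of the Trac and Trdc counts in the libraries labelled knockout, against 22.2% (11.2 to 37.1) and 26.0% (13.8 to 44.1) in the control libraries. The Trgc genes took 14.8% (12.8 to 17.0) and 11.9% (10.3 to 13.7) of the Trbc and Trgc counts in the libraries labelled knockout, against 19.5% (13.2 to 27.3) and 25.1% (16.9 to 35.8) in the control libraries. Neither share depends on the scaling between libraries, and neither overlapped between groups, with an exact two-sided permutation p of 0.333, the smallest that 2 against 2 can give. For Trdc the counting intervals of the 2 groups were also apart, while for Trgc the interval of control replicate 1 reached into those of both libraries labelled knockout and the interval of control replicate 2 just reached into that of knockout replicate 1. Over all segments the delta share of alpha and delta was 8.13% and 7.08% in the libraries labelled knockout, against 16.2% and 25.7% in the control libraries, and the gamma share of beta and gamma was 11.2% and 8.80%, against 16.0% and 21.6%. The lower share stands beside a higher level: gamma and delta rose, but alpha and beta differed by a larger factor. Among V segments alone the same shares lay closer together. The delta V share was 9.45% and 7.21% in the libraries labelled knockout, against 10.9% (3.62 to 23.6) and 26.5% in the control libraries. The gamma V share was 6.71% and 5.38%, against 8.33% (1.75 to 22.5) and 12 of 60 counts. The groups did not overlap, but the intervals of control replicate 1 covered the shares of both libraries labelled knockout. The delta V share depends on 4 alpha V segments described further on, which held 62 of 82 and 23 of 50 alpha V counts in the control libraries. The other 126 had 20 and 27 counts there, beside 10 and 18 delta V counts. In the libraries labelled knockout they had 451 and 605 counts, beside 53 and 52 delta V counts.

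**Figure D2:**
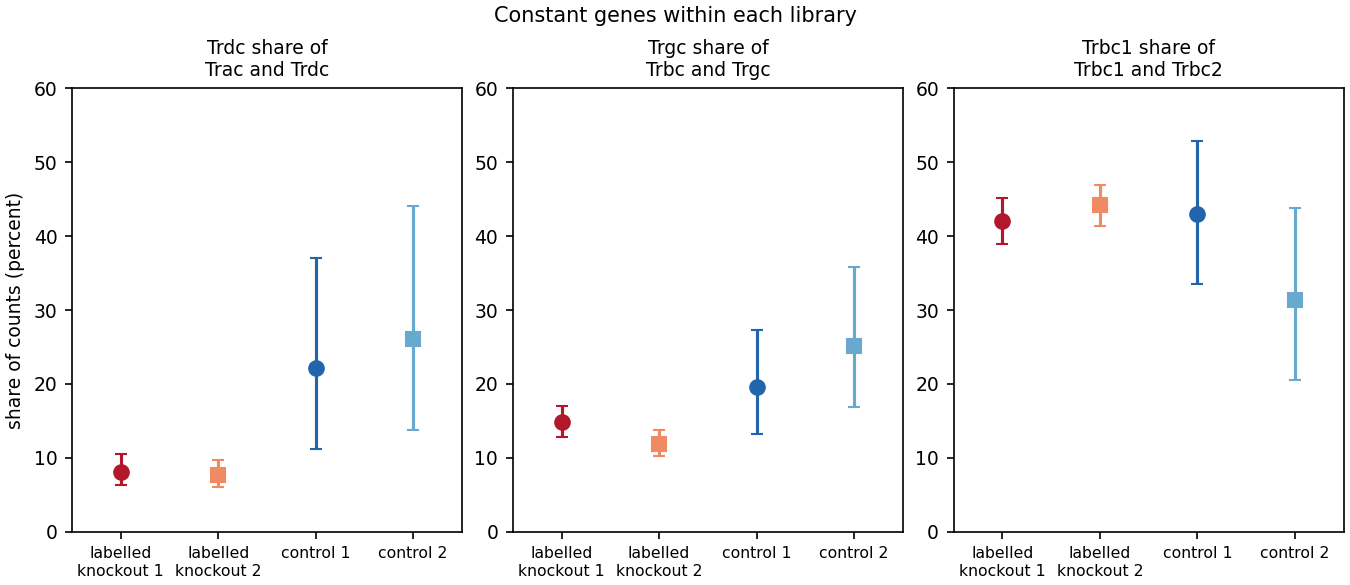
Share of constant gene counts (percent, y axis) in each library for Trdc of Trac and Trdc, Trgc of Trbc and Trgc, and Trbc1 of Trbc1 and Trbc2. Bars are exact 95% Clopper-Pearson intervals on halved counts, for counting error only. The Trdc share is 8.15% and 7.74% in the libraries labelled knockout and 22.2% and 26.0% in the control libraries, while the Trbc1 share overlaps between groups.

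Beta V segments gave the clearest picture of segment choice, since none of the 35 has a near-identical copy among the members. All 17 that were tested were higher, beside 12.1% of all genes tested. Each of the 17 had passed the filter in both libraries labelled knockout but not in both control libraries. Being high in the libraries labelled knockout is thus what let them into the test, and their count is no separate support. Summed, the 35 had 42.5 and 52.5 CPM in the libraries labelled knockout, against 2.89 and 1.95 CPM in the control libraries, a 19.6-fold difference. Trbv13-2, a member of the Vβ8 family of the older nomenclature, had the highest CPM of them. It had 120 and 165 counts in the libraries labelled knockout, against 10 and 6 counts in the control libraries, a log2 fold change of 3.81 ± 0.43 (edgeR adjusted p = 0.00746).

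Its relatives Trbv13-1 and Trbv13-3 also rose. Trbv13-1 had 114 and 113 counts in the libraries labelled knockout, against 4 and 0 counts in the control libraries (log2 fold change 5.42 ± 0.85, edgeR adjusted p = 0.0154). Trbv13-3 had 86 and 89 counts in the libraries labelled knockout, against 8 and 6 counts in the control libraries (log2 fold change 3.30 ± 0.38, edgeR adjusted p = 0.00788). Together the Trbv13 family took 27.4% and 25.1% of beta V counts in the libraries labelled knockout, against 33.3% and 25.0% in the control libraries, so its share overlapped between groups. Trbv3 had 96 and 126 counts in the libraries labelled knockout, against 9 and 4 counts in the control libraries (3.74 ± 0.50, edgeR adjusted p = 0.0105). Trbv1, the first V segment of the locus, had 96 and 124 counts in the libraries labelled knockout, against 6 and 8 counts in the control libraries (3.64 ± 0.37, edgeR adjusted p = 0.00596). Trbv16 had 78 and 111 counts in the libraries labelled knockout, against 0 and 4 counts in the control libraries (5.18 ± 0.85, edgeR adjusted p = 0.0172). None of these 6 overlapped between groups. Of the 31040 genes with any count, 31.7% also had both libraries labelled knockout above both control libraries. The 6 were named for a mean CPM to which the libraries labelled knockout gave most, so this is no separate support. Without control replicate 1 the adjusted p was 0.0511 for Trbv1 and 0.0514 for Trbv16.

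Outside the naming rule, and chosen after their values were seen, Trbv14 and Trbv26 had no count in the control libraries. Trbv14 had 33 and 47 counts in the libraries labelled knockout and was at least 11.5-fold higher, and Trbv26 had 39 and 25 counts and was at least 9.16-fold higher. Both bounds are against a floor of 3 fragments over the control group, taken as 6 counts since a pair of counts may be 1 fragment, and the same floor is used below.

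No segment dominated. In the libraries labelled knockout the leading beta V segment took 10.3% and 11.3% of beta V counts and the leading 3 together 28.3% and 28.4%. Of the 22 beta V segments annotated as genes, 20 and 22 had a count in the libraries labelled knockout, against 14 and 13 in the control libraries. Of the 13 annotated as pseudogenes, Trbv24 alone had any, with 2 and 10 counts in the libraries labelled knockout and 0 in both control libraries, and the other 12 had 0 counts everywhere. The number of segments seen grows with depth. At a common 48 beta V counts as deposited, the expected number of beta V segments was 16.1 and 16.2 in the libraries labelled knockout. In the control libraries it was 13.3 and 13.0. At a common 25 halved counts, an alternative chosen after seeing the data, it was 13.07 and 13.04, against 12.10 and 13.0. The groups thus lay close together at equal depth on halved counts and further apart on counts as deposited. The share of each beta V segment was much alike in both libraries labelled knockout, with a Pearson correlation of 0.98 over 35 segments, given as a description since the libraries share the same segments and mapping. Between the control libraries, with 66 and 48 beta V counts, it was 0.79.

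**Figure D3:**
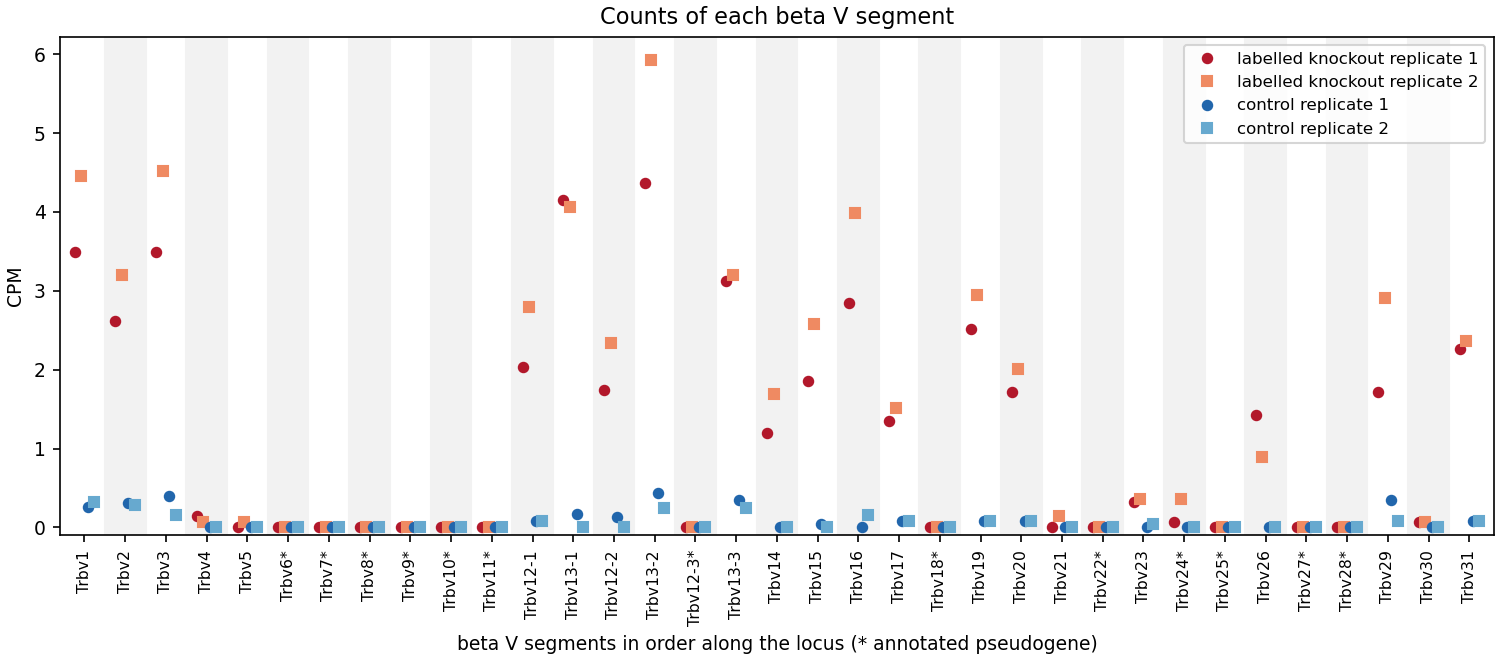
CPM of each of the 35 beta V segments in each library, in order along the locus, with an asterisk for annotated pseudogenes. The libraries labelled knockout lie above the control libraries in the 17 tested segments, led by Trbv13-2, while 12 of the 13 pseudogenes are at 0 in all 4 libraries.

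The beta J segments showed the same direction, with 11 of 12 tested called higher, beside 12.1% of all genes tested. All 12 had passed the filter in both libraries labelled knockout but not in both control libraries. Neither their count nor a lack of overlap between their groups is thus separate support. Both libraries labelled knockout lay above both control libraries in 31.7% of the 31040 genes with any count. Among the 11, Trbj2-6 is annotated as a pseudogene. It had 19 and 23 counts in the libraries labelled knockout, against 1 and 4 counts in the control libraries. Whether J counts come from joined chains was not tested. Trbj1-5 had 53 and 68 counts in the libraries labelled knockout, against 4 and 2 counts in the control libraries (log2 fold change 3.96 ± 0.51, edgeR adjusted p = 0.01). Trbj1-4 had 46 and 70 counts in the libraries labelled knockout, against 1 and 5 counts in the control libraries (3.91 ± 0.66, edgeR adjusted p = 0.0182). Trbj1-3 had 42 and 69 counts in the libraries labelled knockout, against 3 and 6 counts in the control libraries (3.28 ± 0.53, edgeR adjusted p = 0.0164). These 3 segments of the first beta cluster, printed above, rose and their groups did not overlap, but without control replicate 1 their adjusted p-values ran between 0.0521 and 0.0923, and without control replicate 2 that of Trbj1-3 was 0.0575. Over all chains 12 J segments were called higher, and this count was 0 without control replicate 1, 2 without control replicate 2 and 7 without either library labelled knockout. Trbj2-2, with 18 and 22 counts in the libraries labelled knockout and 4 and 1 counts in the control libraries, was the tested beta member that was not called (2.62 ± 0.73, edgeR adjusted p = 0.0593). The Trbj1 cluster, which lies before Trbc1, took 62.9% and 67.4% of beta J counts in the libraries labelled knockout, against 55.2% and 75.9% in the control libraries, where each library had 29 beta J counts. The balance between the clusters therefore overlapped between groups.

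Alpha V segments behaved less evenly. Of 130, 75 had a count somewhere and 14 were tested, of which 7 were higher and 7 were not called. Over all genes tested 12.1% were higher. The 7 called higher had passed the filter in both libraries labelled knockout but not in both control libraries. Trav12-2 had 18 and 28 counts in the libraries labelled knockout, against 1 and 2 counts in the control libraries, a pooled ratio of 13.2 (95% interval 2.44 to 86.4 for counting error; edgeR adjusted p = 0.0239). It was not called without knockout replicate 2 (adjusted p = 0.102), without control replicate 1 (0.122) or without control replicate 2 (0.0818). Trav16n, the alpha V segment with the highest mean in the libraries labelled knockout, had 13 and 40 counts there, against 0 in both control libraries, and was at least 7.59-fold higher (edgeR adjusted p = 0.0392). The 5 other called segments, Trav9-1, Trav7-5, Trav13-1, Trav3-3 and Trav4-4-dv10, were also at 0 in both control libraries, and their lower bounds ran from 4.58 to 5.44-fold. Leaving out either control library left 1 alpha member called, Trac.

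The 7 alpha V segments that were tested and not called fell into 2 sorts. Trav14-2 had 12 and 22 counts in the libraries labelled knockout, against 0 and 2 counts in the control libraries (edgeR adjusted p = 0.0595), and Trav5-4, Trav16 and Trav14d-3-dv8 had a like pattern, with 12 to 23 counts in each library labelled knockout, at most 2 in each control library and edgeR adjusted p-values of 0.054 to 0.0744. Their groups did not overlap, as was so in this direction for 31.7% of the 31040 genes with any count. These segments had passed the filter in both libraries labelled knockout but not in both control libraries, so this is no separate support. The other 3 had counts in the control libraries that overlapped those in the libraries labelled knockout or came near them.

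Trav14n-3 had 19 and 18 counts in the libraries labelled knockout, against 27 and 12 counts in the control libraries (log2 fold change -0.41 ± 0.56, edgeR adjusted p = 0.634). Trav13-4-dv7 had 10 and 18 counts in the libraries labelled knockout, against 14 and 5 counts in the control libraries (0.22 ± 0.70, edgeR adjusted p = 0.85). Trav14-3 had 20 and 18 counts in the libraries labelled knockout, against 11 and 0 counts in the control libraries (1.43 ± 1.14, edgeR adjusted p = 0.407). These are copies printed above, and Trav13n-4, which was too low to be tested, had 8 and 10 counts in the libraries labelled knockout, against 10 and 6 counts in the control libraries. The 4 lie as 2 pairs: Trav13n-4 (chr14:53362267-53364106) is followed by Trav14n-3 (chr14:53370077-53370575), and Trav13-4-dv7 (chr14:53757356-53757921) by Trav14-3 (chr14:53763173-53763694).

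Together these 4 segments, grouped after their values were seen, took 11.2% and 9.57% of alpha V counts in the libraries labelled knockout, against 75.6% and 46.0% in the control libraries. Their summed level was 2.07 and 2.30 CPM in the libraries labelled knockout, against 2.71 and 0.934 CPM in the control libraries, so the groups overlapped. The other 126 alpha V segments had 16.4 and 21.7 CPM in the libraries labelled knockout, against 0.874 and 1.10 CPM in the control libraries, a 19.4-fold difference, where all 130 together gave 7.57-fold. Without the 4, the log2 ratio of the whole alpha chain was 4.35, against 3.81 with them. V segments took 26.1% and 28.0% of all alpha counts in the libraries labelled knockout, against 52.9% and 46.7% in the control libraries, the opposite order to the beta chain, where V segments took 33.4% and 32.9% in the libraries labelled knockout, against 21.4% and 22.7% in the control libraries. The opposite order did not hold without the 4 segments, since the other alpha V segments differed 19.4-fold, near the 19.7-fold of Trac. Whether the control counts of alpha V segments come from joined alpha chains was not tested.

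**Figure D4:**
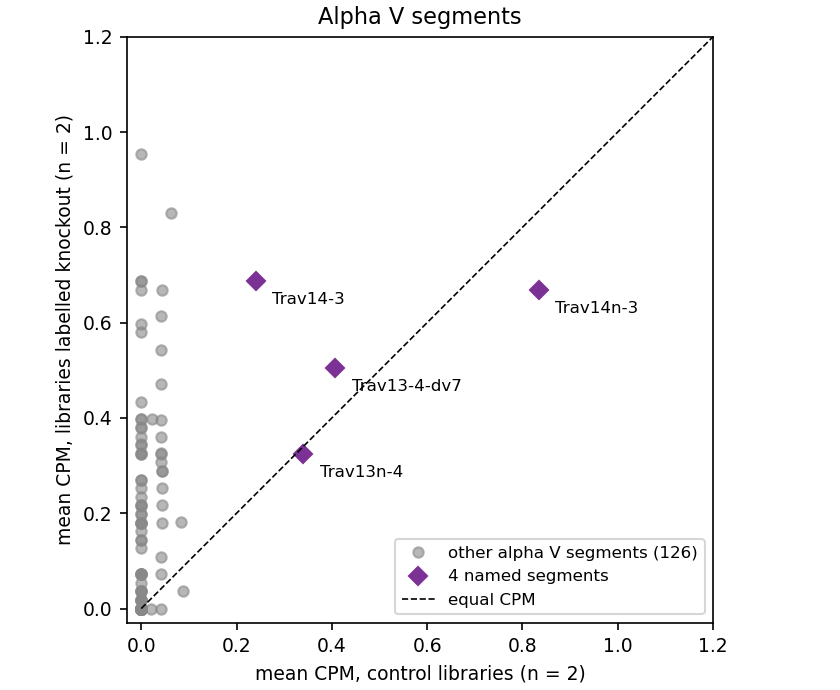
Mean CPM of each of the 130 alpha V segments in the libraries labelled knockout (y axis, n = 2) against that in the control libraries (x axis, n = 2), with a dashed line at equal levels. Trav14n-3, Trav13-4-dv7, Trav13n-4 and Trav14-3 stand apart on the right with control counts of 27 and 12, 14 and 5, 10 and 6, and 11 and 0, while the other 126 lie near 0 on the x axis.

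Near-identical copies bear on how many alpha V segments could be seen. Of the 130, 91 were at least 97% identical to another member over the shorter transcript, and 46 of these (50.5%) had 0 counts in all libraries, against 9 of the 39 without such a copy (23.1%). Of the 44 with an exact copy, 38 had 0 counts in all libraries (86.4%), so a count of 0 there does not show that a segment was unused. At least 1 count was found for 63 and 71 alpha V segments in the libraries labelled knockout, against 14 and 17 in the control libraries. At a common 26 halved alpha V counts the expected numbers were 20.54 and 20.95 in the libraries labelled knockout, against 10.3 and 17.0 in the control libraries. The leading alpha V segment took 4.13% and 5.98% of alpha V counts in the libraries labelled knockout.

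Alpha J segments were almost unseen in the control libraries. The 60 members summed to 117 and 169 counts in the libraries labelled knockout, or 4.26 and 6.07 CPM, against 3 and 3 counts in the control libraries, or 0.131 and 0.122 CPM. Of these counts, the 9 annotated pseudogenes held 14 and 15 in the libraries labelled knockout and 0 in both control libraries. Traj6 had 11 and 11 counts in the libraries labelled knockout, against 0 in both control libraries. It was the single alpha J segment that passed the filter, and was at least 3.15-fold higher (edgeR adjusted p = 0.0426). Its adjusted p was 0.059 with no filter on low counts, 0.0733 with the replicate number as a block, and 0.123 and 0.103 without control replicate 1 and without control replicate 2. Traj2 had 18 and 8 counts in the libraries labelled knockout, against 0 in both control libraries. Traj3, in which the joint motif was not found, had 11 and 10 counts in the libraries labelled knockout, against 0 and 2 counts in the control libraries.

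Counts leaned toward the end of the J array nearest Trac. Traj1 to Traj20 held 65.8% (95% interval 52.6 to 77.9) and 65.1% (53.6 to 74.8) of alpha J counts in the libraries labelled knockout. Traj21 to Traj40 held 32 and 47 counts, and Traj41 to Traj61, the end nearest the V segments, 8 and 12 counts in these libraries. With 3 counts in each control library the lean could not be compared between groups.

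**Figure D5:**
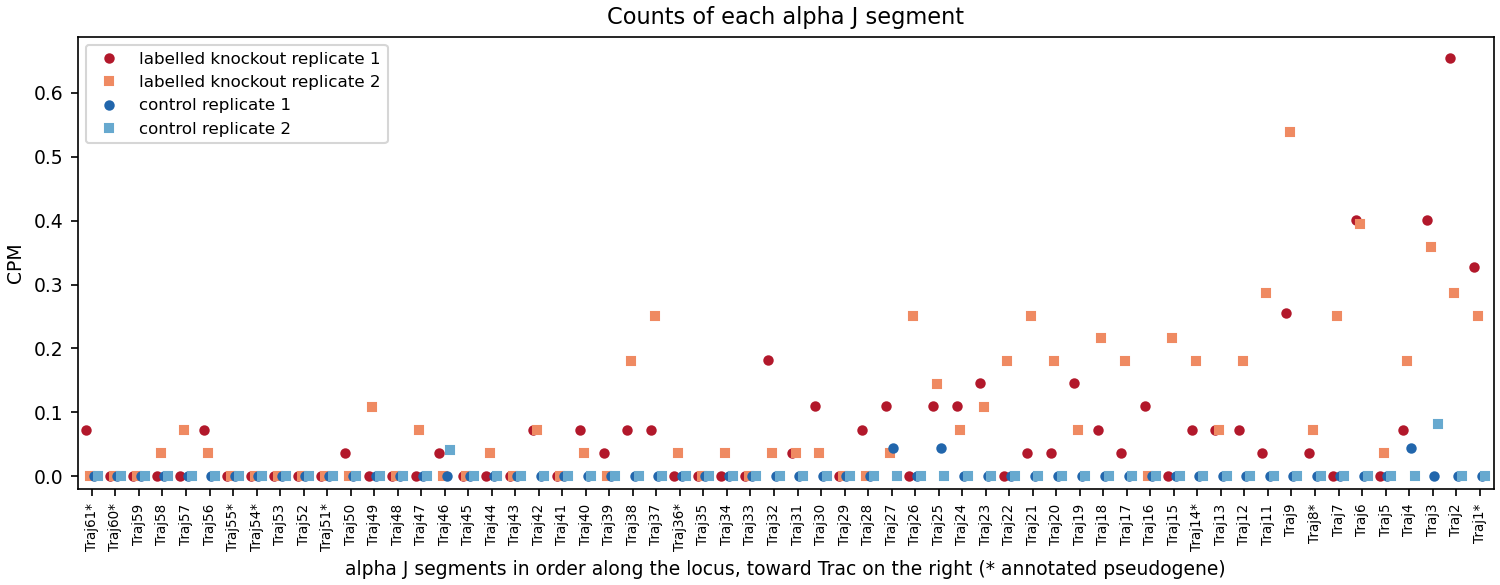
CPM of each of the 60 alpha J segments in each library, in order along the locus with Trac beyond the right edge and an asterisk for annotated pseudogenes. Points of the libraries labelled knockout climb toward the right, where Traj2, Traj3, Traj6 and Traj9 are the highest, and 3 counts in each control library make up all the control signal.

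The segments of the invariant receptors, looked up after the values were seen, gave few counts. Traj18, the J segment of the invariant alpha chain of natural killer T cells, had 2 and 6 counts in the libraries labelled knockout and 0 in both control libraries. Of its V partners, Trav11 had 0 counts in all libraries and Trav11d had 0 and 1 counts in the libraries labelled knockout and 0 in both control libraries. Trav11 and Trav11d are 100% identical over 342 bases, so reads from them match both places. Trav1, the V segment of mucosal-associated invariant T cells, had 0 and 2 counts in the libraries labelled knockout and 0 in both control libraries, and its partner Traj33 had 0 counts throughout. At this depth the limit a count of 0 allows, 3 fragments taken as 6 counts, equals 0.215 to 0.262 CPM.

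Among gamma V segments, named here in the Trgv numbering of the files, Trgv2 led. It had 39 and 40 counts in the libraries labelled knockout, against 2 and 6 counts in the control libraries, a log2 fold change of 2.96 ± 0.56 (edgeR adjusted p = 0.0236), with an adjusted p of 0.093 without control replicate 1. Trgv6 had 24 and 8 counts in the libraries labelled knockout, against 2 and 3 counts in the control libraries. Trgv1 had 8 and 20 counts in the libraries labelled knockout, against 1 and 0 counts in the control libraries. Both gave no overlap between groups, as did 31.7% of the 31040 genes with any count in this direction. They were too low to test, and the libraries labelled knockout differed between themselves in which of these 2 was higher. The other 4 gamma V segments had at most 7 counts in any library. Trgj4 had 4 and 3 counts in the libraries labelled knockout and 0 in both control libraries.

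Among delta V segments Trdv4 (chr14:54074905-54075515) took most counts, with 44 and 45 in the libraries labelled knockout, against 7 and 14 in the control libraries. Its log2 fold change was 1.77 ± 0.45 (edgeR adjusted p = 0.0479), just under the threshold. It was not called by DESeq2 (adjusted p = 0.0722), by limma-voom (0.0513) or with any one library left out (0.0732 to 0.16). Trdv4 took 83.0% and 86.5% of delta V counts in the libraries labelled knockout, against 70.0% and 77.8% in the control libraries, with wide intervals. Trdv1 had 7 and 4 counts in the libraries labelled knockout and 2 and 2 counts in the control libraries, and Trdj1 had 2 and 0 counts in the libraries labelled knockout and 0 in both control libraries. V segments with joined alpha and delta names, which either chain can use, were counted with alpha. These 10 segments had 2.73 and 3.05 CPM in the libraries labelled knockout, against 0.699 and 0.365 CPM in the control libraries.

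The other parts of the receptor moved with its segments. All 11 genes of a list of receptor partners were higher, beside 12.1% of all genes tested. Cd3e, a CD3 chain, had 777 and 1008 counts in the libraries labelled knockout, against 37 and 31 counts in the control libraries (log2 fold change 4.39 ± 0.23, edgeR adjusted p = 0.00175). Cd8a, the co-receptor of cytotoxic T cells, had 1586 and 2382 counts in the libraries labelled knockout, against 34 and 59 counts in the control libraries (5.10 ± 0.32, edgeR adjusted p = 0.00218). Cd4, the co-receptor of helper T cells that macrophages also express, had 2781 and 2833 counts in the libraries labelled knockout, against 327 and 276 counts in the control libraries (2.90 ± 0.15, edgeR adjusted p = 0.00175). The receptor members made up 65.1% and 66.4% of the counts of members and CD3 chains together in the libraries labelled knockout, against 75.9% and 74.0% in the control libraries.

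Of 23 signalling genes found in the files, 18 were higher, 0 lower and 5 not called. Over all genes tested 12.1% were higher and 9.95% lower. Lck, the kinase that starts receptor signalling, had 2190 and 2681 counts in the libraries labelled knockout, against 146 and 128 counts in the control libraries (3.83 ± 0.17, edgeR adjusted p = 0.00164). Zap70, the kinase that binds the phosphorylated CD3 chains, had 685 and 821 counts in the libraries labelled knockout, against 61 and 72 counts in the control libraries (3.18 ± 0.18, edgeR adjusted p = 0.00182). Those not called were Vav1, Plcg1, Bcl10, Nfatc1 and Nfatc2, with log2 fold changes of -0.07 to 0.44.

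Of the 16 tested in a list of 19 recombination and thymocyte genes, 4 were higher (Prkdc, Hmgb2, Cd1d1 and Gfi1), 0 lower and 12 not called, beside 12.1% higher and 9.95% lower over all genes tested. Rag1, which cuts the DNA at the segments, had 8 and 16 counts in the libraries labelled knockout and 0 in both control libraries, while its partner Rag2 had 0 in all libraries. Dntt, which adds bases at the joints, had 24 and 51 counts in the libraries labelled knockout, against 18 and 12 counts in the control libraries (0.98 ± 0.53, edgeR adjusted p = 0.241). Ptcra, the surrogate alpha chain of immature thymocytes, had 0 counts in both libraries labelled knockout, against 2 and 0 counts in the control libraries.

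Of a list of genes used by gamma delta T cells, 9 of 11 were tested. Of these 5 were higher, 1 lower and 3 not called, beside 12.1% higher and 9.95% lower over all genes tested. The higher ones were Blk, Cd163l1, Il23r, Zbtb16 and Cd27. Blk, a kinase that B cells also use, had 1651 and 1671 counts in the libraries labelled knockout, against 81 and 64 counts in the control libraries (4.19 ± 0.20, edgeR adjusted p = 0.00169). Il23r, the receptor for interleukin 23, had 67 and 78 counts in the libraries labelled knockout, against 6 and 10 counts in the control libraries (2.85 ± 0.40, edgeR adjusted p = 0.012). Maf, a transcription factor also present in macrophages, had 5110 and 4849 counts in the libraries labelled knockout, against 7773 and 6386 counts in the control libraries, and its log2 fold change was -0.83 ± 0.17 (edgeR adjusted p = 0.0295). Maf was not called without knockout replicate 2, without control replicate 1 or at an adjusted p under 0.01. Without control replicate 1, 2 genes of the list were called higher. The cytokine genes Il17a and Il17f had at most 6 counts in any library.

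Markers of other cells moved with the receptor. The counts below stand beside 12.1% higher and 9.95% lower over all genes tested. All 7 B cell markers were higher, with a summed level of 1156 and 1228 CPM in the libraries labelled knockout, against 82.7 and 52.3 CPM in the control libraries. Of 7 lymph node stroma and follicle markers found in the files, 5 were higher, with summed levels of 654 and 615 CPM in the libraries labelled knockout, against 118 and 72.7 CPM in the control libraries. Glycam1, an adhesion ligand of lymph node venules, had 1017 and 1148 counts in the libraries labelled knockout, against 10 and 8 counts in the control libraries (6.57 ± 0.22, edgeR adjusted p = 0.00153), and Cr2, a complement receptor of B cells and follicular dendritic cells, had 3404 and 3963 counts in the libraries labelled knockout, against 66 and 35 counts in the control libraries (5.86 ± 0.33, edgeR adjusted p = 0.00179). Without control replicate 1, 3 of these markers were called higher. No lymph node marker was at 0 in any library. Of 9 natural killer cell markers, 7 were higher, with summed levels of 54.8 and 71.3 CPM in the libraries labelled knockout, against 11.5 and 10.5 CPM in the control libraries, and the number called higher was 2 without control replicate 1 and 3 without control replicate 2. Of 5 plasma cell markers, 2 were higher and 1 lower, with summed levels of 1386 and 882 CPM in the libraries labelled knockout, against 639 and 611 CPM in the control libraries. The part of lymph node or other lymphoid tissue in the receptor counts was not tested.

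Markers of the exocrine pancreas moved the other way. The share lower over all genes tested was 9.95%. Of 7 acinar markers 5 were lower and 0 higher, with summed levels of 172 and 501 CPM in the libraries labelled knockout, against 7234 and 1754 CPM in the control libraries, and of 5 duct markers 4 were lower. Without knockout replicate 2, 38 members were called higher, and the log2 ratios of the chain sums were 3.67 for alpha, 3.53 for beta, 2.7 for gamma and 2.15 for delta, close to those with it.

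The beta locus also holds genes that have nothing to do with T cells. The trypsinogens, digestive enzymes of acinar cells, lie among the beta segments, and in the same stretch of chromosome 6 some of them fell while the receptor segments rose. Single trypsinogens are uncertain, since they are close copies of each other. Prss3 had 23 and 53 counts in the libraries labelled knockout, against 6890 and 1094 counts in the control libraries (log2 fold change -7.08 ± 1.17, edgeR adjusted p = 0.0175). Try4 had 53 and 242 counts in the libraries labelled knockout, against 18351 and 1659 counts in the control libraries (-6.47 ± 1.49, edgeR adjusted p = 0.038). Try5 and Prss2 had edgeR adjusted p-values of 0.0658 and 0.0531 and were not called, with both libraries labelled knockout below both control libraries. Dad1, which lies just after Trac on chromosome 14, had 1895 and 1973 counts in the libraries labelled knockout, against 1641 and 1598 counts in the control libraries (-0.06 ± 0.10, edgeR adjusted p = 0.683).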

How the data were processed

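Per the labels' protocols, total RNA of pancreas (TRIzol, then DNase) was sequenced after library preparation with a Vazyme VAHTS kit. The submitters' processing notes name the build GRCm38, featureCounts 2.0.1, STAR 2.7.6a, Trim Galore 0.6.6, SAMtools 1.7 and FastQC 0.11.9. Which annotation was counted, whether strand was used and how reads with several matches were handled is not stated in these sources. Each of the 4 deposited files holds raw, whole-number counts of 1 library by gene symbol, as its header and values show.

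Gene types, coordinates and sequences came from GENCODE M21 on GRCm38: 254 members matched by symbol and 12 by an older symbol through the RefSeq gene table. Copies were compared with edlib 1.3.9.post1, at 97% identity or more. CPM is the count scaled to a library total of 1000000, where 1 count equals 0.0359 to 0.0437 CPM. The libraries were compared with edgeR 4.0.16 (filterByExpr, TMM, quasi-likelihood F test, group only) over 19134 genes, with a biological coefficient of variation of 23%, and p-values were adjusted by Benjamini-Hochberg at 0.05; the scripts were tested on simulated data. Alternatives were DESeq2 1.42.0, limma-voom 3.58.1, other scalings and filters, each library left out and a replicate block.

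Named were all constant genes, the V and J segments with the highest mean CPM of each chain, tested members that were not called, and a short list of partner genes. The members and lists were chosen with earlier results of these data known. In group sizes of 2 no outlying library can be tested for. Same-numbered libraries did not deviate together (r = 0.03).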

Additional observations from a re-analysis of the deposited data

How the results depend on the processing

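Under every alternative run, 0 members were called lower. Of the 181 members with a count, 106 were at 0 in both control libraries, so for most members this 0 was fixed in advance. Other scalings, filters and tools, the replicate block and halved counts left 34 to 46 members called higher, against 45. With any one library left out the count ran between 13 and 41, and at an adjusted p under 0.01 it was 13. With 1 library left in a group, that library is assumed to vary like the others. Leaving out 1 library gave 1 to 10 alpha, 10 to 25 beta, 2 to 5 gamma and 0 to 1 delta members called higher, 8 to 27 V and 0 to 7 J segments, 2338 genes higher at most and 702 at least, and 424 to 1696 genes lower. For the lists it gave 2 to 6 gamma delta genes higher and 0 to 1 lower, 2 to 8 natural killer markers and 3 to 6 lymph node markers higher, and a median log2 fold change of the members of 3.43 to 4.33. At an adjusted p under 0.01 the counts were 1 alpha, 12 beta, 0 gamma and 0 delta members, 10 V and 0 J segments, 3 constant genes, 644 genes higher and 323 lower, 1 recombination gene, 3 gamma delta genes higher and 0 lower, and 2 natural killer markers. With a change of at least 2-fold also asked for, 903 genes and 0 gamma delta genes were lower. A mean count of at least 10 left 3 alpha members and 1 delta member higher, and halved counts, an alternative chosen after seeing the data, left 1 alpha member. No filter, DESeq2 and limma-voom each left 1 delta member. With the replicate number as a block, 38 members were called higher, with 1 delta member and 7 J segments among them, but with 2 pairs and a correlation of 0.03 the numbers were not taken to pair the libraries. Without the 4 alpha V segments named above, a choice made after seeing the data, the alpha log2 ratio was 4.35. The excess of alpha V segments with a count, 51.5 on average, was 42.0 at 5 counts or more, 17.5 at a common number of counts as deposited, 7.11 at a common number of halved counts and 20.5 without near-identical copies. For beta V segments 8.5 became 13.5 at 5 counts or more, 2.999 at a common number of counts as deposited and 0.501 at a common number of halved counts. Both halved values are alternatives chosen after seeing the data. With 1 library left out the log2 fold change of Trav14n-3 ran from -0.92 to 0.37 (the upper end without control replicate 1) and that of Trav13-4-dv7 from -0.38 to 1.21 (-0.38 without control replicate 2 and -0.22 without knockout replicate 2), so both changed sign. The cause was not tested. Depth limits the control group most, with 553 and 413 member counts in all.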
